A study of Homo sapiens with 12 samples.

Results

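The ectodysplasin receptor group comprises the receptor EDAR, its ligand EDA, the second ectodysplasin receptor EDA2R, the adaptor EDARADD, and the related receptors TNFRSF19 and TNFRSF21. These 6 genes, of 60671 in the deposited count table, were taken by matching their symbols to Ensembl gene identifiers. The set was chosen by the CPM of EDAR and TNFRSF19 with and without induction of wild-type SOX9, where both were higher with it (CPM, counts scaled to library size). Their values in libraries of the SOX9 line are therefore a description without a test, and the same holds there for the other members. Tests are given for the M303 and GFP lines, whose libraries are not part of that contrast. The members were nevertheless listed with earlier results from all 6 groups known, so these tests are not independent of the choice either.

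RNA sequencing was done on LS180, an established human colorectal cancer line, in 12 libraries forming 6 groups of 2. Derivatives carried a doxycycline-inducible construct for V5-tagged wild-type SOX9, for V5-tagged mutant SOX9 (M303), or for GFP. SOX9 is a DNA-binding regulator active in intestinal crypts, and M303 is a truncated form of it. Every line was sampled with 0.5 µg/ml doxycycline for 24 h and without it. All 6 groups had the LS180 background, including its own SOX9 gene, and since the 3 constructs sat in different lines, construct and line cannot be told apart. The labels call the libraries of a group duplicates without saying whether cultures were separate, so the p-values reflect a spread that may be only technical.

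Ectodysplasin is a ligand of the tumour necrosis factor (TNF) family. One of its splice forms binds EDAR and another binds EDA2R, also called XEDAR. Bound EDAR recruits the adaptor EDARADD through a death domain, and TRAF and TAK1 proteins then lead to IKK and NF-kB. The pathway is best known from skin appendages, where loss of the ligand, the receptor or the adaptor causes hypohidrotic ectodermal dysplasia, with few hairs, teeth and sweat glands. TNFRSF19, also called TROY, is a relative of EDAR without a death domain, and in mouse intestine it is a WNT target found in crypt stem cells. TNFRSF21, also called death receptor 6, carries a death domain.

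Totals lay between 31012775 and 48529770 counts per library. The 8 epithelial and colorectal markers, among them EPCAM, VIL1 and CDX2, were all present and summed to between 9757 and 11716 CPM per library. Markers of other cell types were low: the 5 blood and immune markers summed to between 1.91 and 4.24 CPM, with CD3E at 0 in all 12 libraries and CD14 making up most of the sum. The 5 fibroblast markers summed to between 1.10 and 2.58 CPM and the 4 endothelial markers to between 0.0551 and 0.460 CPM. The SOX9 gene, which pools endogenous and construct reads, had 711 and 760 CPM in induced SOX9 libraries, against 357 and 381 CPM in uninduced SOX9 libraries. It had 818 and 867 CPM in induced M303 libraries, against 399 and 367 CPM in uninduced M303 libraries. In the GFP line it had 405 and 371 CPM with doxycycline, against 399 and 392 CPM without.

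The members lie on 5 chromosomes of GRCh38. EDAR (ENSG00000135960) lies on the minus strand of chromosome 2 from 108894471 to 108989372, with 4426 exonic bases in 12 merged exon blocks. TNFRSF19 (ENSG00000127863) lies on the plus strand of chromosome 13 from 23570370 to 23676104, with 5113 exonic bases. EDA2R (ENSG00000131080) lies on the minus strand of chromosome X from 66595637 to 66639298, and EDA (ENSG00000158813) on the plus strand of X from 69616067 to 70039472. TNFRSF21 (ENSG00000146072) lies on the minus strand of chromosome 6 from 47231532 to 47309905. EDARADD (ENSG00000186197) lies on the plus strand of chromosome 1 from 236348257 to 236502915. EDAR, EDA2R, TNFRSF19 and TNFRSF21 share no exonic base with another annotated gene, so their counts carry no reads from an overlapping exon.

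Since SOX9 is a DNA-binding factor of the SOX family, upstream sequence of the members was read from RefSeq promoters (GRCh38.p14), from 250 to 51 bases before each annotated start. Entries were found for 4 of the 6 members, EDA2R, EDARADD, TNFRSF19 and TNFRSF21, with 8 windows of 200 bases in all. The SOX core motif ACAAT, its longer form AACAAT, which contains it, and the TCF/LEF motif CTTTGAT were searched on both strands. The windows below are those of TNFRSF19, the receptor that was higher with SOX9, from both of its annotated starts, and that of the first start of EDA2R, which overlapped between SOX9 groups. Each is written in the direction of its gene, 5′ to 3′, and capitals mark the SOX core on either strand.
TNFRSF19, first start, chr13:23570162-23570361, plus strand: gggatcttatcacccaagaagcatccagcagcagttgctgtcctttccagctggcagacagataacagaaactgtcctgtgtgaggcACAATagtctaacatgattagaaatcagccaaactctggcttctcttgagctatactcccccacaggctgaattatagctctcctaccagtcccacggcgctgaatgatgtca
TNFRSF19, second start, chr13:23579110-23579309, plus strand: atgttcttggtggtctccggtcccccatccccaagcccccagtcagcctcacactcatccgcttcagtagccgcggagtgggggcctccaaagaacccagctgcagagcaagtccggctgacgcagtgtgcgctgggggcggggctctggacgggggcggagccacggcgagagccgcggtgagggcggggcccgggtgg
EDA2R, first start, chrX:66639320-66639519, minus strand: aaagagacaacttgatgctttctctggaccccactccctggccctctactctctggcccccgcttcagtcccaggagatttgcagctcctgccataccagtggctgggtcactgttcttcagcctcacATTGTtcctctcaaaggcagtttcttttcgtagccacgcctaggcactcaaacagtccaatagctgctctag

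The first TNFRSF19 window held ACAAT, beginning 163 bases before the start, and the second held none of the 3 motifs. The EDA2R window held the core on the opposite strand, read as ATTGT and as part of ATTGTT, 122 bases before the start. The second EDA2R window, which includes 98 bases that the count annotation marks as exonic, held CTTTGAT 149 bases before the start. The TNFRSF21 window and the 3 EDARADD windows held no match. Of 35116 RefSeq windows of the same length, 21.2% held the SOX core, 7.54% its longer form and 1.89% the TCF/LEF motif. A match describes letters in this window only, and no match says nothing of binding.

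EDAR had 6.69 and 7.60 CPM in induced SOX9 libraries, against 1.39 and 0.957 CPM in uninduced SOX9 libraries. The groups did not overlap, and the induced SOX9 libraries were the highest of all 12. These values rest on 330 and 242 counts with doxycycline, against 52 and 34 counts without. Means were 7.14 ± 0.642 CPM with SOX9 induced and 1.17 ± 0.307 CPM without (SD, n = 2 each). The log2 fold change was 2.60 (SE 0.35), a 6.06-fold difference, and 182nd from the top among 18219 genes tested. In bulk RNA, more cells expressing a gene and more RNA per cell cannot be told apart.

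TNFRSF19 had 4.50 and 5.24 CPM in induced SOX9 libraries, against 1.69 and 1.63 CPM in uninduced SOX9 libraries. These groups did not overlap either, and the induced pair again stood above the other 10 libraries. Means were 4.87 ± 0.525 CPM with SOX9 induced and 1.66 ± 0.0375 CPM without (SD, n = 2 each), a log2 fold change of 1.55 (SE 0.30) or 2.93-fold. Both induced libraries lay above both uninduced ones for EDAR and TNFRSF19, as for 23.2% of all genes tested. At an adjusted p under 0.05, edgeR called 2.97% of all genes tested, 1.81% as higher and 1.16% as lower. The share of genes whose induced SOX9 pair stood above the other 10 libraries was not taken. Nothing is read from these shares or from that place for the members, since this contrast picked EDAR and TNFRSF19.

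EDA2R, which binds the other splice form of the ligand and is a known p53 target, had 0.324 and 0.659 CPM in induced SOX9 libraries, against 0.375 and 0.394 CPM in uninduced SOX9 libraries. The induced pair lay on both sides of the uninduced pair. Its log2 fold change was 0.33 (SE 0.71), and the counts behind it were 16 and 21, against 14 and 14. TNFRSF21 had 82.0 and 78.4 CPM with SOX9 induced, against 75.5 and 82.3 CPM without, and the groups overlapped. Its log2 fold change was 0.02 (SE 0.08), with a 95% confidence interval of -0.15 to 0.19. Leaving out 1 library turned the sign of both, with a range of -0.25 to 0.77 for EDA2R and of -0.038 to 0.086 for TNFRSF21.

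**Figure D1:**
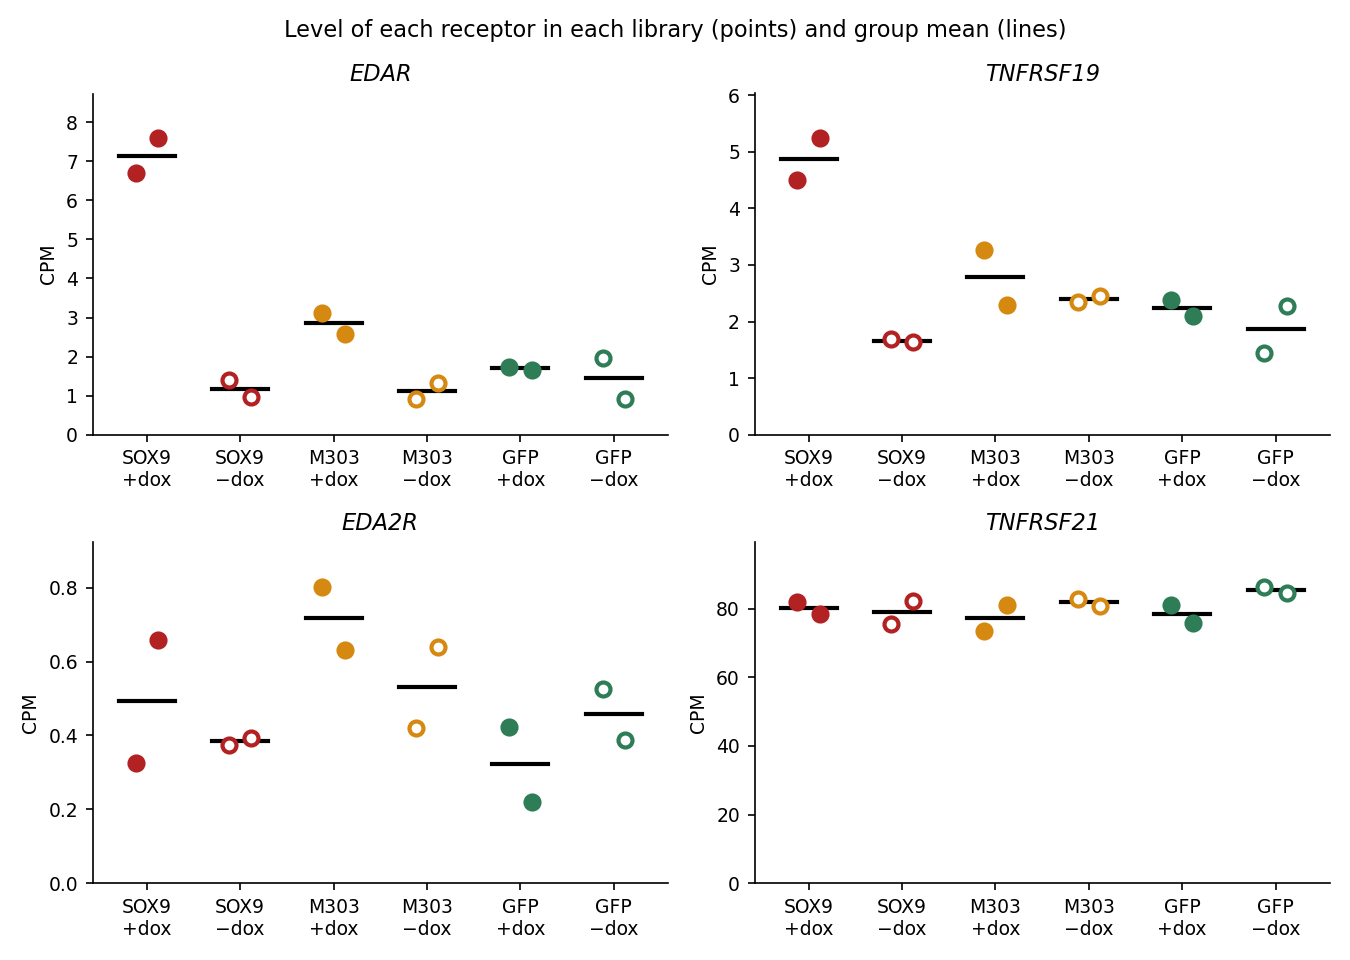
Level of the 4 receptors in each of the 12 libraries, in CPM, with filled points for libraries with doxycycline, open points for libraries without, and lines for group means. EDAR and TNFRSF19 stand highest in the 2 induced SOX9 libraries, EDA2R stays under 1 CPM, and TNFRSF21 lies between 73.6 and 86.4 CPM in every library.

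The ligand and the adaptor were at or near 0 in LS180. EDA had 2 counts in replicate 1 of induced GFP and 2 counts in replicate 1 of uninduced GFP, and 0 counts in the other 10 libraries, including all 4 of the SOX9 line. EDARADD had 0 counts in all 12 libraries, of 442296787 counts in total. For a single library, 3 counts, the limit that a count of 0 allows if counts are independent, came to between 0.0618 and 0.0967 CPM. Over all libraries together this limit was 0.00678 CPM for EDARADD. Such limits cover counting error only, and they are too low where a fragment adds 2 counts, as it often does here. EDARADD shares 1304 of its 3996 exonic bases with the pseudogene ENO1P1 on the same strand, and 2692 bases remained to it alone. Reads from shared bases are not assigned, so the 0 counts of ENO1P1 say nothing of reads from those bases. The exons of EDA overlap an unnamed gene on the opposite strand by 1327 bases, and that gene had 0 counts. Counting was without strand, so reads from these bases were not assigned either. Neither EDA nor EDARADD passed the filter on low counts, so 4 of the 6 members were tested.

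EDAR was also higher in both induced M303 libraries, without passing the test. It had 3.12 and 2.59 CPM in induced M303 libraries, against 0.902 and 1.33 CPM in uninduced M303 libraries. The groups did not overlap, as in 17% of all genes in this direction. The counts behind these values were 132 and 90 with M303 induced, against 30 and 50 without. Means were 2.85 ± 0.377 CPM with M303 induced and 1.12 ± 0.304 CPM without (SD, n = 2 each). Both induced M303 libraries also stood above all 6 uninduced and both induced GFP libraries, a pattern that 2.29% of genes tested shared. Nothing is read from that share, since the 6 include the uninduced SOX9 libraries of the contrast that picked EDAR. The log2 fold change with M303 was 1.35 (SE 0.36, 95% confidence interval 0.60 to 2.09), or 2.54-fold. In edgeR's quasi-likelihood test this was the 16th smallest p of 18219, at 0.00119, and it did not pass after Benjamini-Hochberg adjustment (adjusted p = 1.00). Only 0.00549% of all genes passed in this comparison, namely 1 gene, SOX9 itself, whose count includes construct reads. Across the alternative settings the smallest adjusted p of EDAR was 0.249 and its log2 fold change stayed between 1.10 and 1.65.

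The other receptors gave smaller values with M303. TNFRSF19 had 3.26 and 2.30 CPM in induced M303 libraries, against 2.35 and 2.45 CPM in uninduced M303 libraries, with overlapping groups. Its log2 fold change was 0.22 (SE 0.30, 95% confidence interval -0.41 to 0.84, adjusted p = 1.00 by edgeR). A missed threshold with an interval this wide does not show that TNFRSF19 was the same with and without M303. EDA2R had 0.803 and 0.632 CPM with M303 induced, against 0.421 and 0.639 CPM without, and a log2 fold change of 0.43 (SE 0.69). TNFRSF21 had 73.6 and 81.1 CPM with M303 induced, against 82.9 and 80.6 CPM without, and a log2 fold change of -0.08 (95% confidence interval -0.25 to 0.09). None of these 3 passed the test (adjusted p = 1.00 each, edgeR).

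Doxycycline with GFP served as the control. EDAR had 1.74 and 1.65 CPM in induced GFP libraries, against 1.97 and 0.915 CPM in uninduced GFP libraries. The uninduced pair enclosed the induced pair, and the log2 fold change was 0.25 (SE 0.36, 95% confidence interval -0.50 to 1.00). TNFRSF19 had 2.38 and 2.09 CPM with GFP induced, against 1.45 and 2.27 CPM without, a log2 fold change of 0.26 (SE 0.31). EDA2R had 0.423 and 0.220 CPM with GFP induced, against 0.526 and 0.388 CPM without, a log2 fold change of -0.50 (SE 0.73). TNFRSF21 had 81.0 and 75.9 CPM with GFP induced, against 86.4 and 84.6 CPM without. These groups did not overlap, as in 13.8% of all genes in this direction, and the log2 fold change of -0.12 (95% confidence interval -0.30 to 0.05) did not pass (adjusted p = 1.00). No member passed in this comparison, where edgeR called 0 genes (0%). There were 580 genes at an unadjusted p under 0.05, and 2 calls by DESeq2.

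**Figure D2:**
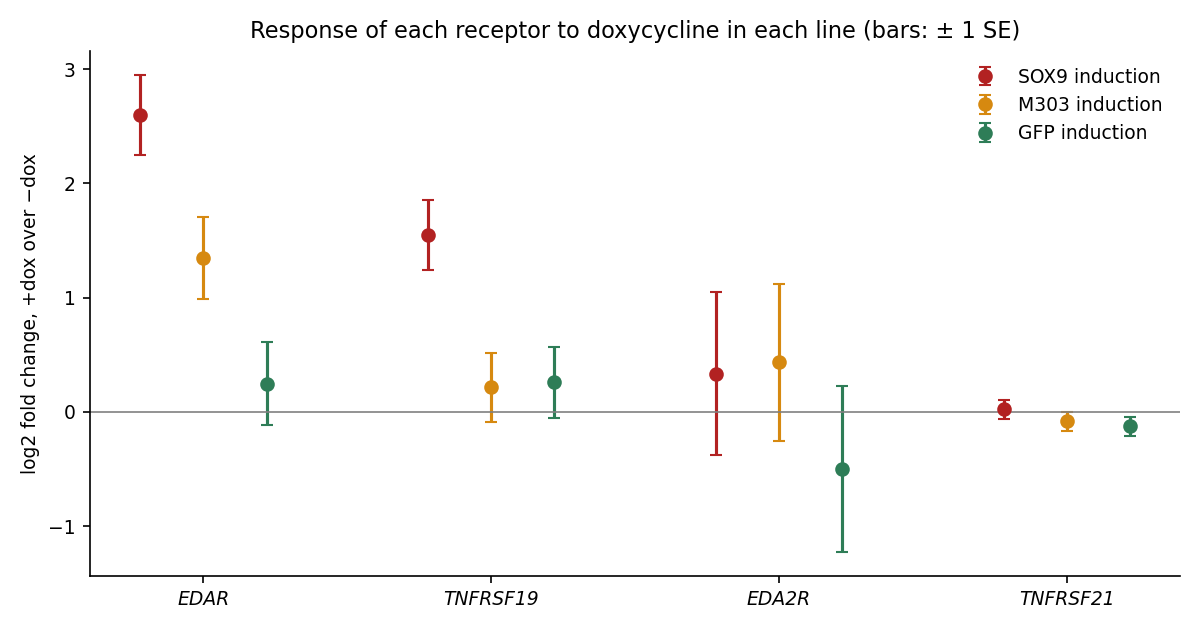
Log2 fold change of each receptor with over without doxycycline, from edgeR, for SOX9, M303 and GFP induction, with bars of 1 SE on either side. EDAR is at 2.60, 1.35 and 0.25 in these lines, and TNFRSF19 at 1.55, 0.22 and 0.26.

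Differences between inductions were taken as interaction terms. For M303 minus GFP, which used no SOX9 library, EDAR differed by 1.10 on the log2 scale (SE 0.51, 95% confidence interval 0.04 to 2.15). The edgeR p was 0.0425 and the adjusted p was 0.992, so that the difference did not pass. Again 0.00549% of genes passed, and the 1 gene was SOX9. The value depended on the uninduced GFP duplicates, being 0.46 without replicate 1 and 1.56 without replicate 2. TNFRSF19 differed by -0.04 (95% confidence interval -0.94 to 0.86), TNFRSF21 by 0.04 (-0.20 to 0.29) and EDA2R by 0.93 (-1.16 to 3.02), with adjusted p-values of at least 0.992. Among all genes, 0.489% passed for SOX9 minus M303 and 0.895% for SOX9 minus GFP. As a description, SOX9 induction exceeded M303 induction by 1.25 (SE 0.50) for EDAR and by 1.33 (SE 0.43) for TNFRSF19. It exceeded GFP induction by 2.35 (SE 0.50) for EDAR and by 1.29 (SE 0.43) for TNFRSF19. For EDAR the difference from GFP induction was 1.71 without replicate 1 of uninduced GFP and 2.81 without replicate 2.

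No member passed between the uninduced M303 and GFP lines. Uninduced M303 against uninduced GFP gave log2 fold changes of -0.35 for EDAR (95% confidence interval -1.13 to 0.43, edgeR adjusted p = 0.884) and 0.36 for TNFRSF19 (-0.29 to 1.01, adjusted p = 0.863). EDA2R stood at 0.22 and TNFRSF21 at -0.06. In this comparison 0.00549% of genes passed, 1 gene, which was the stem cell marker OLFM4, named after its value was seen. Uninduced SOX9 against uninduced GFP gave -0.28 for EDAR (SE 0.37) and -0.17 for TNFRSF19 (SE 0.32), as a description. Both signs depended on the uninduced GFP duplicates: EDAR was 0.36 without replicate 1 and -0.74 without replicate 2, and TNFRSF19 was -0.46 without replicate 1 and 0.20 without replicate 2.

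Ordered by mean, EDAR was highest in induced SOX9 at 7.14 CPM, then induced M303 at 2.85, induced GFP at 1.70, uninduced GFP at 1.44, uninduced SOX9 at 1.17 and uninduced M303 at 1.12 CPM. Induced SOX9 did not overlap with induced M303, nor induced M303 with induced GFP. The share of all genes with such separations was not taken, and nothing is read from them. Induced SOX9 was also part of the contrast that picked EDAR. From induced GFP downwards each group overlapped with the next. TNFRSF19 was highest in induced SOX9 at 4.87 CPM, and the other groups ran from induced M303 at 2.78 to uninduced SOX9 at 1.66 CPM. Among those 5, each group overlapped with the next, for example induced M303 (2.30 to 3.26 CPM) with uninduced M303 (2.35 to 2.45 CPM). EDA2R means lay between 0.322 CPM in induced GFP and 0.718 CPM in induced M303, and TNFRSF21 means between 77.3 CPM in induced M303 and 85.5 CPM in uninduced GFP. The order of EDAR differed from that of the SOX9 gene count. That count pools endogenous reads with reads from a wild-type or a truncated construct, so it need not measure construct amount alike in both lines. Induced SOX9 libraries had the lower SOX9 gene level, 711 and 760 CPM, against 818 and 867 CPM in induced M303, and the higher EDAR, 6.69 and 7.60 CPM, against 3.12 and 2.59 CPM in induced M303.

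**Figure D3:**
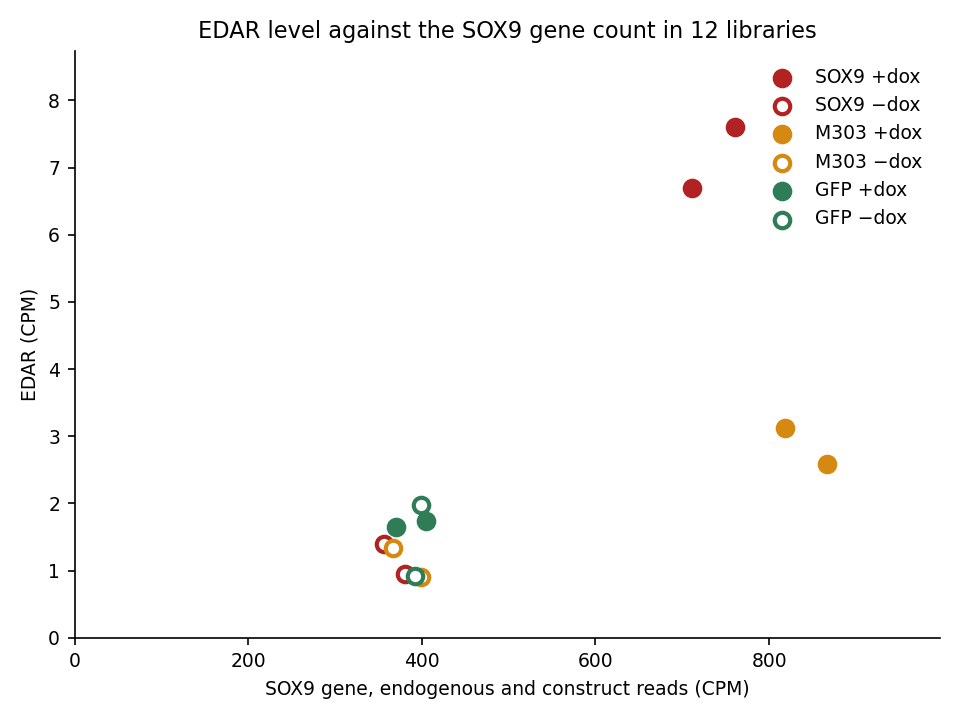
EDAR level against the level of the SOX9 gene, both in CPM, one point per library. The 8 libraries without a SOX9 or M303 construct induced sit between 0.902 and 1.97 CPM of EDAR, the induced M303 pair at 2.59 and 3.12, and the induced SOX9 pair at 6.69 and 7.60 CPM.

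Levels were compared between genes per exon length as well as library size, as TPM. Without doxycycline TNFRSF21 led with a mean of 88.7 TPM over 6 libraries, above 88.3% of genes tested. TNFRSF19 followed with 1.50 TPM (range 1.08 to 1.86), EDAR with 1.09 TPM (range 0.784 to 1.70) and EDA2R with 0.491 TPM (range 0.400 to 0.685). The ranges of TNFRSF19 and EDAR overlapped, and EDA2R lay below both. With SOX9 induced, EDAR at 6.45 TPM (5.99 and 6.92) stood above TNFRSF19 at 3.81 TPM (3.49 and 4.13). EDAR then exceeded 42.5% of genes tested, against 21.0% without doxycycline in the 3 lines, and TNFRSF19 exceeded 36.3%, against 25.2%. With SOX9 induced TNFRSF21 was at 89.1 TPM and EDA2R at 0.545 TPM.

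The ratio of EDAR to TNFRSF19 in TPM was 1.72 and 1.67 in induced SOX9 libraries, against 0.954 and 0.677 in uninduced SOX9 libraries. It was 1.10 and 1.30 with M303 induced, against 0.444 and 0.628 without. In the GFP line it was 0.847 and 0.912 with doxycycline, against 1.58 and 0.465 without. EDAR led TNFRSF19 in all 4 libraries with SOX9 or M303 induced and in 1 of the other 8, replicate 1 of uninduced GFP. Nothing is read from this order, since the induced SOX9 libraries were part of the contrast that picked both genes. The share of gene pairs with such an order was not taken.

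**Figure D4:**
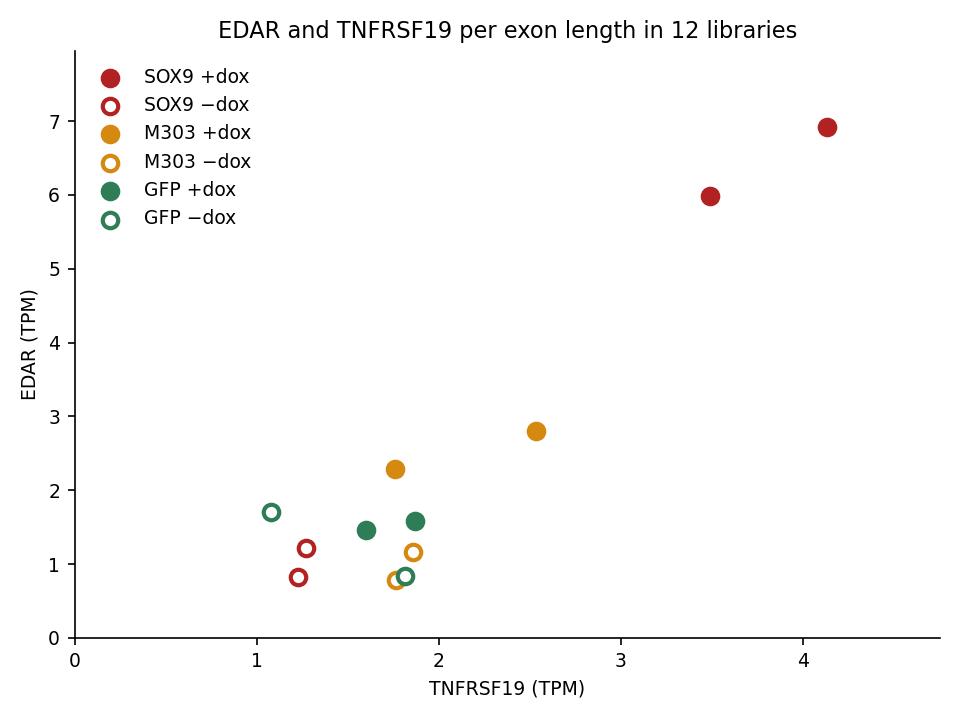
EDAR against TNFRSF19 in TPM, one point per library. The induced SOX9 libraries stand apart on both axes, at 5.99 and 6.92 TPM of EDAR and 3.49 and 4.13 TPM of TNFRSF19, and the induced M303 libraries, at 2.80 and 2.29 TPM of EDAR, stand above the other 8 on that axis.

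Among 12707 genes with a symbol and a mean of at least 1 CPM, those whose log2 CPM followed EDAR most closely over the 12 libraries were KLK6 (Pearson r 0.95), SDR42E1 (0.94), GRAMD1A (0.93), CRYZL2P (0.93) and CD109 (0.93). TNFRSF19 was 233rd in that order (0.80), SOX9 254th (0.80) and TNFRSF21 8873rd (-0.26). For TNFRSF19 the closest were ASXL1 (0.96), LIMK2 (0.95), TENT5A (0.93), FMNL3 (0.93) and MALT1 (0.93), and EDAR was 238th. The libraries fall into separate groups, with 2 induced SOX9 libraries apart from the rest. These coefficients therefore describe the order of genes only and carry no p. The 12 libraries include those of the contrast that picked EDAR and TNFRSF19. Nothing is read from the likeness of these genes to each other or to the SOX9 gene.

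The wider pathway was followed in 6 gene lists. Of 24 genes from TRAF proteins to NF-kB, all tested, 1 rose and 1 fell with SOX9, beside 1.81% and 1.16% of all genes tested (median log2 fold change -0.04, against 0.01 over all genes). TAB3, an adaptor of the TAK1 kinase, rose to 41.9 ± 1.56 CPM in induced SOX9, against 29.7 ± 0.990 CPM in uninduced SOX9 (SD, n = 2 each), a log2 fold change of 0.50 (edgeR adjusted p = 0.0166, SE 0.11). Leaving out any of 3 libraries ended the call, and the adjusted p reached 0.203 without replicate 2 of induced SOX9. BIRC3, an inhibitor of apoptosis and a target of NF-kB, fell to 8.83 ± 0.274 CPM in induced SOX9, against 16.7 ± 1.07 CPM in uninduced SOX9, a log2 fold change of -0.91 (edgeR adjusted p = 9.30e-04). With M303 induced its log2 fold change was -0.56 (adjusted p = 1.00). Of 13 genes described downstream of EDAR in mouse skin, 10 were tested, 1 rose and 0 fell, beside the same 1.81% and 1.16% of all genes (median -0.21, against 0.01). The 1 was CCN2, a matricellular protein, at 29.9 ± 1.50 CPM with SOX9 induced and 16.9 ± 0.00567 CPM without, a log2 fold change of 0.82 (adjusted p = 2.30e-04). Of the others, FOXI3 had a mean of 0 CPM in every group. CXCL10, DKK4, LTB and WNT10B were tested, but their means were under 1 CPM in every group. The SE of their log2 fold changes with SOX9 ran from 0.98 to 1.51. The median of this list rests partly on them, so no shift is read from it.

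Other receptors and ligands of the TNF family were mostly without a call. Of 25 other receptors 16 were tested, and 1 rose with SOX9 while 0 fell, beside 1.81% and 1.16% of all genes tested (median -0.12, against 0.01). It was TNFRSF11A, the receptor RANK, with 117 and 116 CPM in induced SOX9 libraries, against 57.9 and 68.8 CPM in uninduced SOX9 libraries. Its log2 fold change was 0.88 (edgeR adjusted p = 1.53e-06, SE 0.09), and the other 8 libraries lay between 61.7 and 69.3 CPM. Of 16 other ligands 7 were tested and 0 passed in edgeR, beside 2.97% of all genes (1 had an unadjusted p under 0.05, and the median was 0.07).

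The p53 and WNT target lists were taken because EDA2R and TNFRSF19 are targets of these pathways. Of 20 p53 targets, all tested, 2 rose and 0 fell with SOX9, beside 1.81% and 1.16% of all genes tested (median 0.01, as over all genes). They were SESN1, a stress-induced regulator of mTORC1 (log2 fold change 0.46, adjusted p = 0.0242), and TP53I3, an oxidoreductase (0.62, adjusted p = 0.0430). Neither passed once replicate 1 of induced SOX9 was left out (edgeR adjusted p = 0.256 for SESN1 and 0.390 for TP53I3), nor without several of the other libraries. Of 17 WNT targets, all tested, 3 rose and 0 fell, beside the same shares of all genes (median 0.18, against 0.01). APCDD1, a WNT inhibitor at the cell surface, had 110 and 113 CPM in induced SOX9 libraries, against 25.4 and 31.3 CPM in uninduced SOX9 libraries (log2 fold change 1.98, adjusted p = 6.15e-10). NKD1, another WNT inhibitor, rose by 1.14 (adjusted p = 2.15e-07) and the adhesion receptor CD44 by 0.25 (adjusted p = 0.0454), the call of CD44 being lost without any of 8 libraries. With M303 and with GFP induced, 0 genes of the 6 lists passed in edgeR with the filter on low counts or in DESeq2. At an unadjusted p under 0.05, the NF-kB list had 2 genes with M303, the WNT list 2 and the p53 list 1, and with GFP the ligand list had 1 and the WNT list 1. APCDD1 had 37.0 and 40.7 CPM with M303 induced, against 27.4 and 26.9 CPM without. Its log2 fold change was 0.52 (edgeR adjusted p = 0.642 with the filter on low counts and 0.00701 without that filter).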

How the data were processed

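Gene expression was measured by poly(A) RNA sequencing with 150-bp read pairs in 12 libraries. The deposited values are raw read counts per gene. Alignment used STAR 2.7.0a and hg38 per the submitters' processing notes, and per the file headers the authors counted with featureCounts 2.0.1 on Ensembl release 101, each mate singly, without strand and without multiply mapped reads. Of counts from 1 to 200, 69% were even, so a fragment often adds 2 counts and counting error is larger than the counts imply. Of 60671 genes, 42020 have a symbol.

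From the counts, edgeR 4.0.16 (R 4.3.3) fitted all 12 libraries with 1 mean per group (TMM factors 0.981 to 1.02, filterByExpr with a minimum count of 10, robust quasi-likelihood F-test, 6 residual degrees of freedom). The filter left 18219 genes, and calls needed an adjusted p (Benjamini-Hochberg) below 0.05. The biological coefficient of variation was 10.6%. CPM used TMM-scaled totals, and TPM the table's gene lengths. DESeq2 1.42.0 was an alternative, with other size factors, no filter, a replicate block and leaving out each library. The fit was tested on simulated data. Named were all 6 members, the called genes of each list in the inductions (up to 4 by adjusted p) and the 5 genes most correlated with EDAR and with TNFRSF19 (log2 CPM, prior count 2). Members and lists were chosen with earlier results of these data known. Duplicates differed beyond counting noise, so none was counted once for 2. That check does not show whether cultures were separate.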

Additional observations from a re-analysis of the deposited data

Results flagged for a closer look

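The following differences between inductions passed edgeR's test of the interaction term, all for listed genes that are not among the 6 members. TNFRSF11A, the receptor RANK, responded more to SOX9 than to GFP by 0.97 on the log2 scale (adjusted p = 1.20e-04) and more to SOX9 than to M303 by 0.90 (adjusted p = 4.77e-04). BIRC3 responded to SOX9 by -1.0 relative to GFP (adjusted p = 0.0231). Its response relative to M303, -0.36, did not pass (edgeR adjusted p = 0.823). APCDD1 exceeded GFP induction by 1.82 (adjusted p = 1.38e-06) and M303 induction by 1.46 (adjusted p = 2.66e-05). NKD1 exceeded GFP induction by 1.08 (adjusted p = 1.13e-04) and M303 induction by 0.84 (adjusted p = 0.00253). The 3 constructs sat in different lines, and construct and line cannot be told apart.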

How the results depend on the processing

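All 12 removals of 1 library, another scaling, DESeq2, no filter on low counts and a replicate block were run; a group left with 1 library was assumed to vary like the others. Leaving out 1 library gave 231 to 675 calls for SOX9 induction (541 with all), 57 to 107 for SOX9 minus M303 (89), 95 to 229 for SOX9 minus GFP (163), 1 to 2 for M303 induction, 0 to 9 for GFP induction, 1 to 12 for M303 minus GFP, 0 to 39 for uninduced SOX9 against GFP (0 with all, where 866 genes had an unadjusted p under 0.05) and 0 to 56 for uninduced M303 against GFP. Calls in the 6 lists with SOX9 ranged from 5 to 10 (9 with all). DESeq2 called 3 genes for M303 induction, 2 for GFP induction, 139 for SOX9 minus M303 and 2 for uninduced SOX9 against GFP. Without the filter the counts were 9 for M303 induction (1 of them, APCDD1, in the lists), 4 for GFP induction, 147 for SOX9 minus M303, 270 for SOX9 minus GFP, 11 for M303 minus GFP, 17 for uninduced SOX9 and 22 for uninduced M303 against GFP. Some uncalled members changed sign when 1 library was left out: for GFP induction EDAR (-0.21 to 0.89) and TNFRSF19 (-0.024 to 0.63), for M303 induction TNFRSF19 (-0.061 to 0.44), for M303 minus GFP TNFRSF19 (-0.41 to 0.24) and TNFRSF21 (-0.027 to 0.11), and for uninduced M303 against GFP EDAR (-0.81 to 0.29) and EDA2R (-0.11 to 0.49). The same held for untested values: for SOX9 induction EDA2R (-0.25 to 0.77) and TNFRSF21 (-0.038 to 0.086), for SOX9 minus M303 EDA2R (-0.68 to 0.34), and for uninduced SOX9 against GFP EDAR (-0.74 to 0.36) and TNFRSF19 (-0.46 to 0.20). The cause was not tested. EDAR ranged from 2.35 to 2.89 with SOX9 and TNFRSF19 from 1.43 to 1.65. Replicate numbers did not pair the samples: deviations of same-numbered libraries correlated between -0.0786 and 0.0515 over 18219 genes. With the replicate block, 452 genes were called for SOX9 induction, 78 for SOX9 minus M303 and 139 for SOX9 minus GFP, and EDAR stood at 2.62 with SOX9 and 1.32 with M303. Other scalings moved no member's level beyond its replicate spread. EDA2R, at 8 to 34 counts per library, and the duplicates limit what could be detected.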

Other observations

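RANK has a measured ligand and a decoy receptor, and their levels were read after the value of RANK was seen. TNFSF11, the ligand RANKL, had 0 counts in all 12 libraries, as EDARADD did. TNFRSF11B, the decoy receptor osteoprotegerin, had 4.62 and 5.09 CPM in induced SOX9 libraries, against 3.21 and 1.83 CPM in uninduced SOX9 libraries. The groups did not overlap, as in 23.2% of all genes tested in this direction. The log2 fold change of TNFRSF11B, 0.94, did not pass in edgeR (adjusted p = 0.0741). In induced M303 it had 2.41 and 2.41 CPM, against 3.76 and 3.46 CPM in uninduced M303. EDAR and RANK were both measured at higher levels in induced SOX9 libraries, and transcripts of their ligands were at or near 0 counts. This is a description only, since that contrast picked EDAR and the ligand of RANK was read after RANK.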
